A study of Rattus norvegicus with 3 samples.

Results

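The transcriptome of the basolateral amygdala (BLA) of rats taken out of an enriched cage (ER) was compared with that of rats that stayed in it (EE), a contrast called ERvEE. All animals were adult male Sprague-Dawley rats. ER rats lived under environmental enrichment for weeks and were then housed singly without it for further weeks, whereas EE rats kept the enriched group cage during their active cycle and were single by day. Standard-housed (SH) rats, kept in pairs per the study, are given beside them. Tissue punches of the BLA were taken from 10 rats per condition, their RNA was pooled in equal parts, and 1 polyadenylated RNA library was sequenced per condition. Loss of enrichment and housing alone around the clock coincide in ER, so they cannot be told apart, and no difference between the pools can be set against variation between rats.

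The comparison covered the protein-coding genes whose mean scaled count over the ER, EE and SH libraries was at least 50, which were 13386 of the 19113 genes listed and 79.7% of the 16797 protein-coding ones. A scaled count is a read count divided by the size factor of its library. The ER and EE libraries held 29558555 and 29263063 assigned reads, and SH held 30334384. The members took 97.6% of the scaled counts in each library. Just inside the level limit stood Slc10a1 with 38.0 scaled counts in ER, against 47.6 in EE and 64.7 in SH, Ifi47 with 50.3 scaled counts in ER, against 47.6 in EE and 52.8 in SH and B4galt1 with 44.1 scaled counts in ER, against 56.9 in EE and 49.8 in SH. Just outside it stood Pzp with 56.4 scaled counts in ER, 51.7 in EE and 41.8 in SH, Gmnc with 43.1, 58.9 and 47.8 in ER, EE and SH, and Tcf19 with 55.4, 41.4 and 52.8 in ER, EE and SH.

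The BLA is the part of the amygdala that links sensory input with its emotional value. It is built mostly of glutamatergic projection neurons that resemble those of cortex, held in check by a minority of GABAergic interneurons. It borders the central nucleus and the intercalated cell masses, whose neurons are GABAergic and rich in peptides, and lies near the striatum, the claustrum and the endopiriform nucleus. Markers of the labelled tissue were present: Slc17a7, the vesicular glutamate transporter of cortical-type neurons, had 58098 scaled counts in ER, against 57766 in EE and 57756 in SH, and Rspo2, a Wnt agonist used as a marker of BLA projection neurons, had 1800.3 scaled counts in ER, against 1952 in EE and 1817 in SH. In bulk tissue fewer cells of a type and less RNA per cell cannot be told apart.

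Ratios are given as ER over EE, and each is followed in parentheses by its exact 95% binomial (Clopper-Pearson) interval, which covers counting error only. The libraries were close to each other. The median log2 ratio over all members was 0.00, with quartiles of −0.06 and 0.06, and 77.7% of members lay within 1.1-fold of equal values and 99.3% within 1.5-fold. A ratio above 1 was found for 6733 genes (50.3%) and a ratio below 1 for 6653 (49.7%). The interval lay above 1 for 994 genes, or 7.43%, and below 1 for 990, or 7.4%. A ratio of at least 1.5-fold together with an interval that excluded 1, called the size rule, was met by 38 genes that were higher in ER (0.284%) and 54 that were lower (0.403%).

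**Figure D1:**
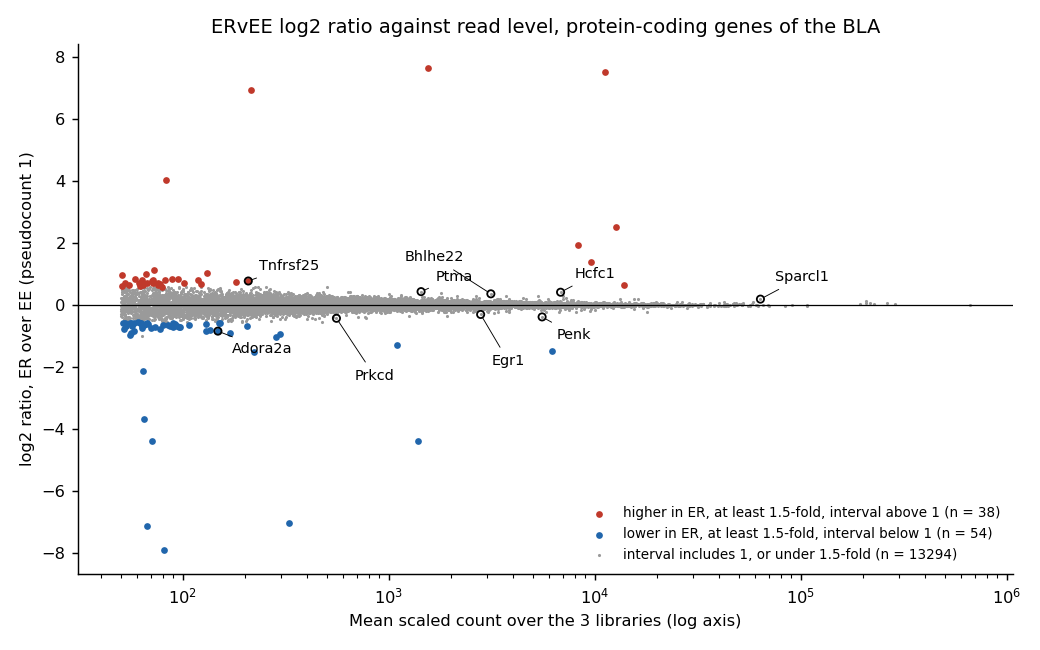
ERvEE log2 ratio (pseudocount of 1) of each of the 13386 genes against its mean scaled count on a log axis, with genes past the size rule in red (38 higher in ER) and blue (54 lower in ER) and 9 genes of the text ringed. The cloud narrows toward high counts, and all 17 genes beyond a log2 ratio of 1.2 in either direction carry clone or placeholder names.

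The spread of the ratios depended on the number of reads. Among the 1019 genes with a mean of 50 to 100 and reads in both libraries, the log2 ratios had an SD of 0.30 estimated from their quartiles, against 0.24 for the counting error of the median gene. Among the 3646 genes with a mean of 1000 to 3000 the values were 0.07 and 0.05, and among the 425 genes of 10000 and more they were 0.04 and 0.02. The observed spread was above counting error at every level. The share of genes with an interval below 1 was 4.61% in the lowest level group, 7.1% at 1000 to 3000, 11.6% at 3000 to 10000 and 25.2% at 10000 and more, and the share with an interval above 1 was 4.71%, 8.15%, 10.2% and 16.5% in the same groups. A well-counted gene thus met the interval rule more often than a rare one, and the counts for the gene lists given further on are read beside these shares.

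**Figure D2:**
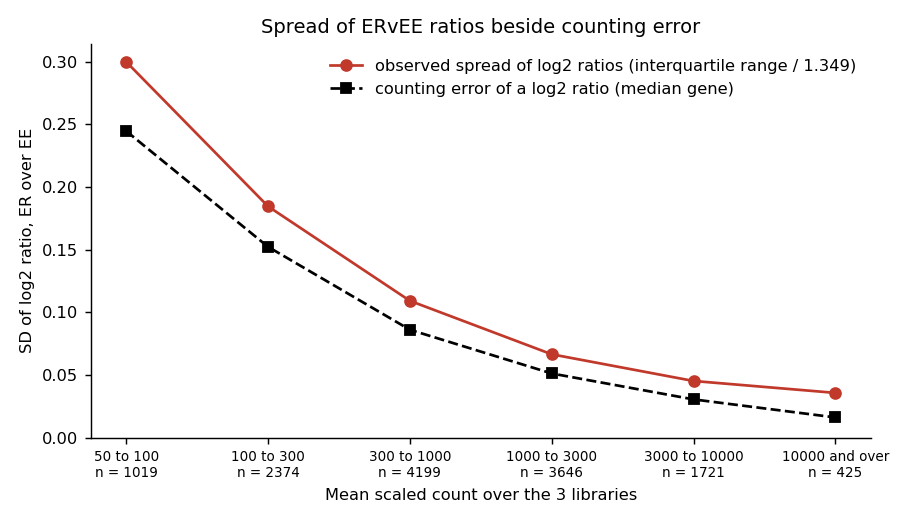
SD of the ERvEE log2 ratio in 6 groups of mean scaled count, as observed (red circles) and as counting error alone gives for the median gene (black squares). The observed spread is 0.30 in the lowest group and 0.04 in the highest, and lies above the counting error in each group.

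Of the genes past the size rule, 20 of the 38 higher and 38 of the 54 lower had an ordinary gene symbol, and the others were known only by a clone or placeholder name. Most of those with a symbol had few reads: the mean was under 100 for 17 of the 20 higher and 30 of the 38 lower genes. Their values per library are shown for the 15 highest and the 15 lowest ratios. Because these genes were picked by their ratio, an EE value that stands apart from ER and SH is partly a product of the choice.

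**Figure D3:**
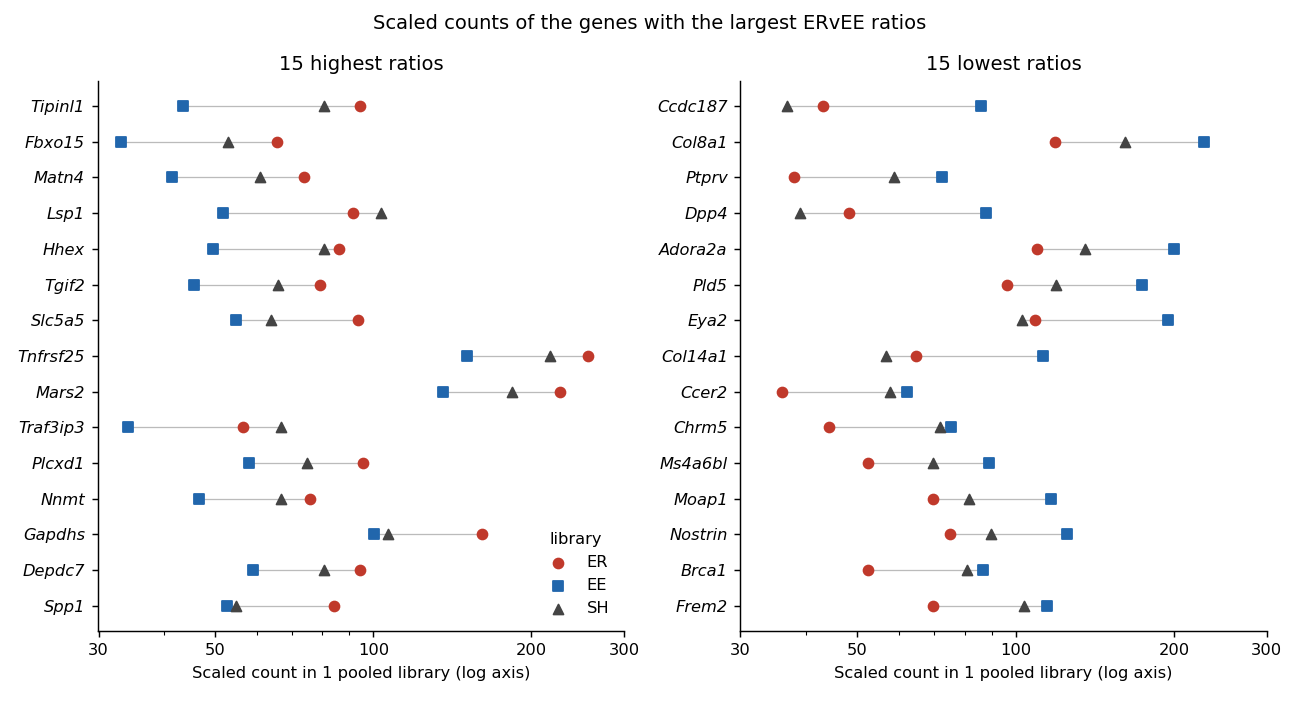
Scaled counts of the 15 genes with the highest (left) and the 15 with the lowest (right) ERvEE ratio among symbols past the size rule, in ER (red circles), EE (blue squares) and SH (grey triangles), on a log axis. The 15 genes on the left have 56.4 to 256 scaled counts in ER and the 15 on the right have 35.9 to 119.

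The genes that were higher in ER belong to several functions. Tnfrsf25, a death receptor of the tumour necrosis factor family, had 256 scaled counts in ER, against 151 in EE and 217 in SH, a ratio of 1.7 (1.38 to 2.1). Mars2, the mitochondrial methionyl-tRNA synthetase, had 227 scaled counts in ER, against 135 in EE and 183 in SH, a ratio of 1.67 (1.34 to 2.09). In both genes ER was the highest of the 3 libraries and EE the lowest. Matn4, a matrilin of the extracellular matrix, had 73.9 scaled counts in ER, against 41.4 in EE and 60.7 in SH, a ratio of 1.79 (1.2 to 2.7). Hhex, a homeobox transcription factor, had 86.2 scaled counts in ER, against 49.6 in EE and 80.7 in SH, a ratio of 1.74 (1.2 to 2.53). Tgif2, a homeobox repressor in TGF-beta signalling, had 79.0 scaled counts in ER, against 45.5 in EE and 65.7 in SH, a ratio of 1.74 (1.18 to 2.58). Both transcription factors were lowest in EE. Lsp1, an actin-binding protein of leukocytes, had 91.3 scaled counts in ER, against 51.7 in EE and 104 in SH, a ratio of 1.77 (1.24 to 2.55), so that its SH value was the highest. Spp1, the secreted phosphoprotein osteopontin, had 84.1 scaled counts in ER, against 52.7 in EE and 54.8 in SH, a ratio of 1.6 (1.11 to 2.31). Nnmt, the nicotinamide N-methyltransferase, had 75.9 scaled counts in ER, against 46.5 in EE and 66.7 in SH, a ratio of 1.63 (1.11 to 2.42). For Spp1 and for Gapdhs, the sperm-type glyceraldehyde-3-phosphate dehydrogenase, EE and SH were close to each other, with Gapdhs at 161 scaled counts in ER, against 100.3 in EE and 107 in SH.

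Other members of this group were the iodide transporter Slc5a5, with 93.3 scaled counts in ER, against 54.8 in EE and 63.7 in SH, a ratio of 1.7 (1.2 to 2.44), and the F-box protein Fbxo15, with 65.7 scaled counts in ER, against 33.1 in EE and 52.8 in SH, a ratio of 1.98 (1.28 to 3.14). The highest ratio was that of Tipinl1, with 94.4 scaled counts in ER, against 43.4 in EE and 80.7 in SH, a ratio of 2.17 (1.49 to 3.21). Its symbol marks it as a copy related to Tipin, so the assignment of reads between copies is uncertain. Plcxd1 had a ratio of 1.65 (1.17 to 2.34), Traf3ip3 of 1.65 (1.05 to 2.63) and Depdc7 of 1.6 (1.14 to 2.27). The intervals of these 3 genes reach down to less than 1.2-fold.

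Of the 15 gene symbols with the lowest ratios, 3 encode matrix proteins, and the matrix protein Matn4 is among the 15 with the highest. Col8a1, a short-chain collagen, had 119 scaled counts in ER, against 227 in EE and 161 in SH, a ratio of 0.523 (0.414 to 0.658). Col14a1, a fibril-associated collagen, had 64.6 scaled counts in ER, against 113 in EE and 56.8 in SH, a ratio of 0.573 (0.414 to 0.789). Frem2, a basement membrane protein of the Fraser complex, had 69.8 scaled counts in ER, against 115 in EE and 104 in SH, a ratio of 0.608 (0.443 to 0.829). In Col8a1, Col14a1 and Frem2 EE was the highest library. Of the transmitter receptors, the adenosine receptor Adora2a had 109.8 scaled counts in ER, against 199.5 in EE and 135 in SH, a ratio of 0.550 (0.430 to 0.700). The muscarinic receptor Chrm5 had 44.1 scaled counts in ER, against 75.5 in EE and 71.7 in SH, a ratio of 0.584 (0.391 to 0.863). For Chrm5 the SH value was close to the EE value, whereas for Adora2a it was nearer to ER.

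Dpp4, a membrane peptidase, had 48.2 scaled counts in ER, against 87.9 in EE and 38.8 in SH, a ratio of 0.549 (0.376 to 0.792). Eya2, a transcriptional coactivator with phosphatase activity, had 109 scaled counts in ER, against 194 in EE and 103 in SH, a ratio of 0.559 (0.437 to 0.714). Ccdc187, a coiled-coil protein, had 43.1 scaled counts in ER, against 85.8 in EE and 36.8 in SH, a ratio of 0.502 (0.338 to 0.736), the lowest ratio of the group. In these 3 genes SH was the lowest library and EE stood alone as the high one. Pld5, a member of the phospholipase D family, had 96.4 scaled counts in ER, against 174 in EE and 119.5 in SH, a ratio of 0.555 (0.427 to 0.719). Nostrin, which traffics endothelial nitric oxide synthase, had 74.9 scaled counts in ER, against 125 in EE and 89.6 in SH, a ratio of 0.599 (0.441 to 0.807). In both genes the SH value lay between ER and EE. Brca1, a DNA repair protein, had 52.3 scaled counts in ER, against 86.8 in EE and 80.7 in SH, a ratio of 0.602 (0.417 to 0.863). Moap1, which binds the apoptosis regulator Bax, had 69.8 scaled counts in ER, against 117 in EE and 81.7 in SH, a ratio of 0.597 (0.435 to 0.814). The ratios of Ptprv, Ccer2 and Ms4a6bl were 0.524 (0.342 to 0.792), 0.579 (0.370 to 0.893) and 0.588 (0.408 to 0.842). All 3 were counted at under 90 scaled counts in every library.

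A second group of genes was chosen by the interval bound nearest to 1 and adds differences that were smaller but better counted. The transcriptional coregulator Hcfc1, which tethers chromatin modifiers to promoters, had 7573 scaled counts in ER, against 5744 in EE and 7173 in SH, a ratio of 1.32 (1.27 to 1.37). Bhlhe22, a transcription factor of glutamatergic neurons, had 3167 scaled counts in ER, against 2489.6 in EE and 3743 in SH, a ratio of 1.27 (1.21 to 1.34). For both, EE was the lowest library. Plpp4, a lipid phosphatase, had 253 scaled counts in ER, against 171 in EE and 247 in SH, a ratio of 1.49 (1.21 to 1.82). Gstcd, a glutathione S-transferase domain protein, had 251 scaled counts in ER, against 172 in EE and 236 in SH, a ratio of 1.46 (1.2 to 1.79). Ptma, which encodes the chromatin protein prothymosin alpha, had 2183 scaled counts in ER, against 1634 in EE and 492 in SH, a ratio of 1.34 (1.252 to 1.43). Processed copies of Ptma are many in mammalian genomes, so its reads are uncertain, and its SH value was less than either of the others by more than the ER to EE difference. The zinc finger gene Zfp707l1, a copy by its symbol, had a ratio of 1.49 (1.23 to 1.81).

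On the lower side, the peptide precursor Penk, source of the enkephalins, had 5046 scaled counts in ER, against 6650.0 in EE and 4972 in SH, a ratio of 0.759 (0.731 to 0.788), so that ER and SH were alike beside a higher EE. Dlk1, a Notch-related membrane protein of neuroendocrine and precursor cells, had 399 scaled counts in ER, against 584 in EE and 444 in SH, a ratio of 0.683 (0.599 to 0.779). Pdyn, the precursor of the dynorphins, had 233 scaled counts in ER, against 339 in EE and 232 in SH, a ratio of 0.687 (0.577 to 0.816). In all 3 genes EE was the highest library. Cyp11b3, a steroid hydroxylase of the aldosterone synthase family, had 682 scaled counts in ER, against 925 in EE and 732 in SH, a ratio of 0.737 (0.666 to 0.816). It belongs to a family of near-identical copies in the rat, so its reads may be split among them. Mroh7, a HEAT-repeat protein, had 371 scaled counts in ER, against 518 in EE and 420.2 in SH, a ratio of 0.717 (0.625 to 0.822).

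Gene lists of cell types, synaptic functions, matrix, immunity and cell machinery, 60 in all, were then set beside the whole. They were chosen with earlier results of these data known, and their members beyond the rule for named genes were picked for the text after their values were seen. Together they held 1884 of the members, 176 with an interval above 1 and 207 with one below 1. The median log2 ratio of a list lay within 0.05 of 0 for 50 of the 60 lists. The lowest median was −0.20 and the highest 0.06, and 34 lists lay under 0 and 26 over it.

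**Figure D4:**
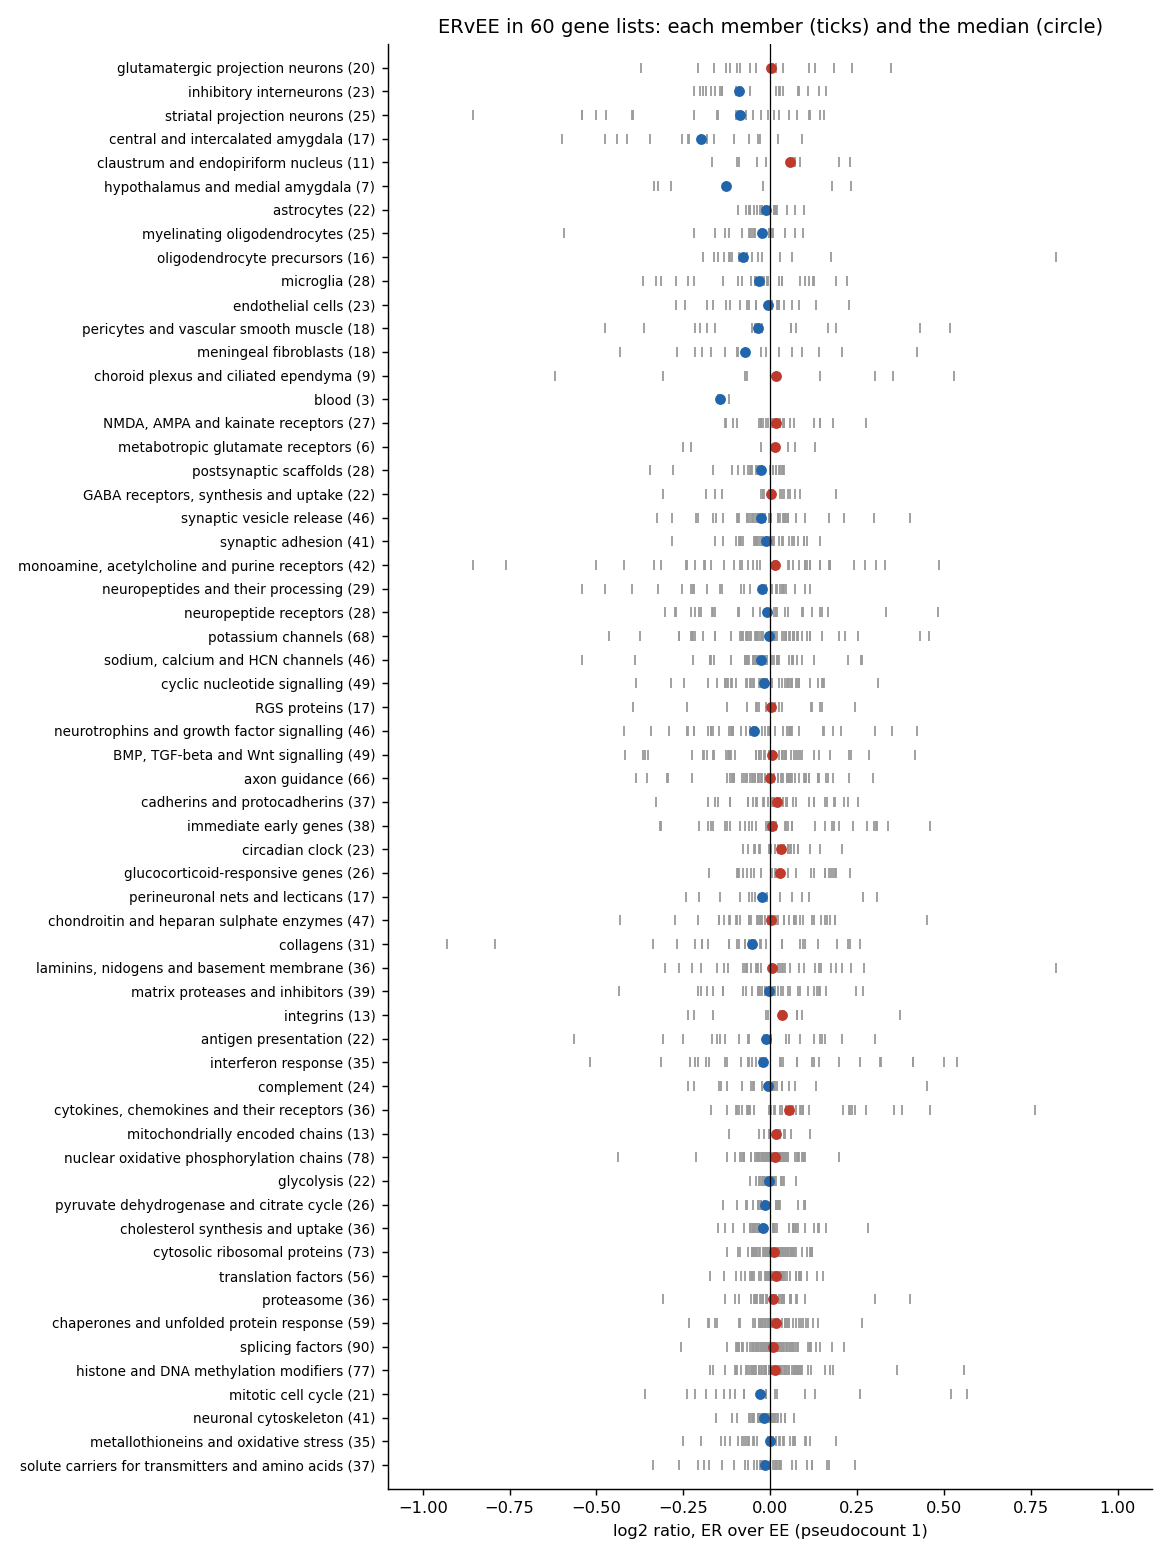
ERvEE log2 ratio (pseudocount of 1) of every member of 60 gene lists (grey ticks) and the list median (circle, red above 0 and blue below), with the number of members in parentheses. The central and intercalated amygdala list has the lowest median at −0.20, and most lists sit within 0.05 of 0.

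The list of genes that mark the central nucleus and the intercalated masses had the lowest median. Of the 17 members of the central and intercalated amygdala list, 15 had a ratio below 1 and 7 an interval below 1, and none had one above it. The median log2 ratio was −0.20, against 0.00 over all members. Prkcd, a kinase that marks a class of central amygdala neurons, had 491 scaled counts in ER, against 668 in EE and 514 in SH, a ratio of 0.736 (0.652 to 0.829). Dlx5, a homeobox factor of GABAergic lineages, had 119 scaled counts in ER, against 181 in EE and 154 in SH, a ratio of 0.658 (0.516 to 0.836). Foxp2, a transcription factor of intercalated and striatal neurons, had 332 scaled counts in ER, against 423 in EE and 269.9 in SH, a ratio of 0.786 (0.677 to 0.912). Meis2 and Tshz1, transcription factors of the same lineages, had ratios of 0.849 (0.797 to 0.904) and 0.850 (0.775 to 0.933). The peptide precursor Tac3, source of neurokinin B, had 354 scaled counts in ER, against 492 in EE and 353 in SH, a ratio of 0.719 (0.624 to 0.828). For Wfs1, an endoplasmic reticulum protein, and the opioid receptor Oprk1 the intervals included 1, at ratios of 1.02 (0.991 to 1.04) and 1.06 (0.910 to 1.246). All 20 genes found for the list, including those under the level limit, summed to 26222 scaled counts in ER, 27549 in EE and 27188 in SH. Wfs1 alone gave 12786 of these in ER and 12586 in EE.

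The 25 striatal projection neuron genes had a median of −0.09, with 9 intervals below 1 and 4 above. The list was split. Markers of the indirect pathway, in which neurons carry D2 dopamine receptors and enkephalin, were on the low side: Adora2a and Penk have been given, and the receptor Drd2 had 154 scaled counts in ER, against 218 in EE and 145 in SH, a ratio of 0.705 (0.568 to 0.874). The sodium channel subunit Scn4b had 182 scaled counts in ER, against 265 in EE and 160.3 in SH, a ratio of 0.686 (0.563 to 0.834). Rgs9, which speeds the shut-off of G proteins in striatum, had 278 scaled counts in ER, against 366 in EE and 263 in SH, a ratio of 0.760 (0.646 to 0.892). For the receptor Drd1 of the direct pathway and Tac1, its substance P precursor, the intervals included 1, at ratios of 1.01 (0.920 to 1.1) and 1.08 (0.888 to 1.32). Pdyn, given above and also made by direct-pathway neurons, was lower, at a ratio of 0.687 (0.577 to 0.816). The low side was thus not limited to markers of the indirect pathway. On the high side stood Spon1, an F-spondin matrix protein, with 7833 scaled counts in ER, against 7041 in EE and 8587 in SH, a ratio of 1.11 (1.08 to 1.15), Rgs14, with 3366 scaled counts in ER, against 3049 in EE and 3485 in SH, a ratio of 1.1 (1.05 to 1.16), and Ppp1r1b, which encodes the dopamine-regulated inhibitor DARPP-32, with a ratio of 1.05 (1.003 to 1.11). All 28 genes found for the list, including those under the level limit, summed to 51192 scaled counts in ER, 52351 in EE and 52885 in SH.

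**Figure D5:**
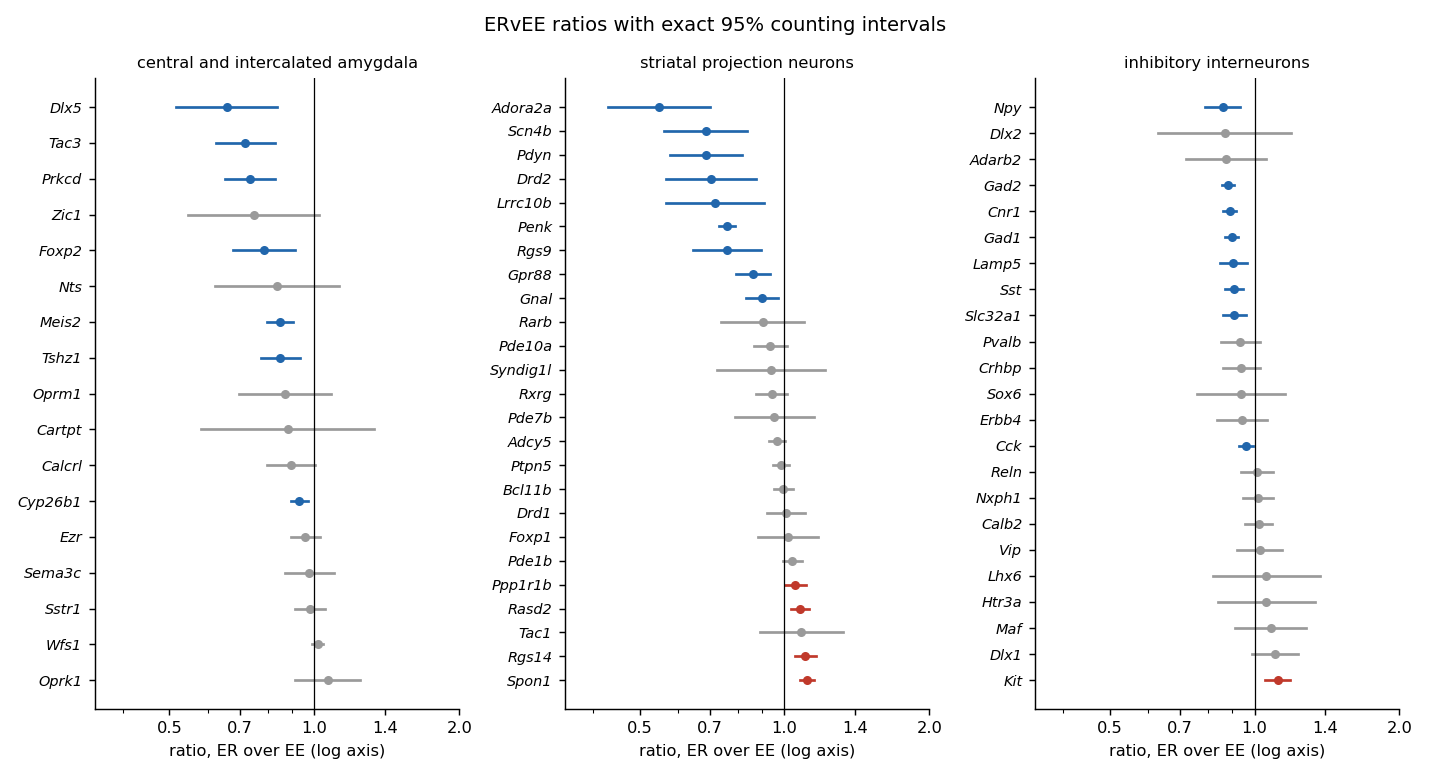
ERvEE ratio of each member of the central and intercalated amygdala, striatal projection neuron and inhibitory interneuron lists, with exact 95% counting intervals on a log axis (blue, interval below 1; red, above 1; grey, interval includes 1). Of 17, 25 and 23 members, 7, 9 and 8 have an interval below 1, and 0, 4 and 1 have one above it.

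Interneuron genes had more intervals below than above 1. Of 23 members, 8 had an interval below 1 and 1 above it, with a median log2 ratio of −0.09. The enzymes that make GABA were on the low side, Gad1 with 8623 scaled counts in ER, against 9621 in EE and 8456 in SH, a ratio of 0.896 (0.870 to 0.923) and Gad2 with 8388 scaled counts in ER, against 9529 in EE and 7961 in SH, a ratio of 0.880 (0.854 to 0.907). Slc32a1, the vesicular transporter that loads GABA, had 2409 scaled counts in ER, against 2652 in EE and 2315 in SH, a ratio of 0.908 (0.858 to 0.961). For these 3 genes ER lay between EE and SH. Among the peptide genes of interneuron classes, Sst, somatostatin, had 4222 scaled counts in ER, against 4649 in EE and 4297 in SH, a ratio of 0.908 (0.870 to 0.948), Npy, neuropeptide Y, 1065 scaled counts in ER, against 1239.6 in EE and 1109 in SH, a ratio of 0.859 (0.790 to 0.934), and Cck, cholecystokinin, a ratio of 0.961 (0.930 to 0.993). The cannabinoid receptor Cnr1 had 7305 scaled counts in ER, against 8228 in EE and 7089 in SH, a ratio of 0.888 (0.860 to 0.917). For Pvalb, the marker of fast-spiking basket cells, Vip and Reln the intervals included 1, at ratios of 0.934 (0.851 to 1.02), 1.03 (0.922 to 1.14) and 1.01 (0.938 to 1.09). The receptor tyrosine kinase Kit was the member with an interval above 1 and had 2480.4 scaled counts in ER, against 2219.8 in EE and 2402 in SH, a ratio of 1.12 (1.05 to 1.18). GABA is made by central, intercalated and striatal neurons too. The summed levels of those lists in the same libraries are given above, with 7 of 17 and 9 of 25 intervals below 1, and their part in the interneuron, peptide and receptor values was not tested.

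Glutamatergic projection neuron genes lay on both sides of 1, with a median of 0.00 over 20 members, 4 intervals above 1 and 8 below. Next to Bhlhe22, Cdh13, an adhesion protein, had 4712 scaled counts in ER, against 4150.1 in EE and 5037 in SH, a ratio of 1.14 (1.09 to 1.18). Lower values were those of Baiap3, a secretory vesicle protein, with 1774 scaled counts in ER, against 2295 in EE and 1687 in SH, a ratio of 0.773 (0.725 to 0.823), the transporter Slc17a6 with 533 scaled counts in ER, against 616 in EE and 442 in SH, a ratio of 0.866 (0.768 to 0.975), and the transcription factors Etv1 and Neurod6, at ratios of 0.936 (0.904 to 0.968) and 0.916 (0.874 to 0.961). Slc17a7 had a ratio of 1.01 (0.994 to 1.02). The 11 claustrum and endopiriform genes had the highest median of the lists, 0.06. Of these, 6 had a ratio above 1 and 5 below, with 4 intervals above 1 and 2 below. Nnat, an imprinted membrane protein, had 26148 scaled counts in ER, against 24648 in EE and 28386 in SH, a ratio of 1.06 (1.04 to 1.08). Gng2, a G protein gamma subunit, had 13768 scaled counts in ER, against 13093 in EE and 13508 in SH, a ratio of 1.05 (1.03 to 1.08). Both belong to the level group of 10000 and more, in which 25.2% of all members had an interval below 1 and 16.5% above it. Rxfp1 was lower, with 958 scaled counts in ER, against 1076 in EE and 852 in SH, a ratio of 0.890 (0.814 to 0.973). The 7 hypothalamus and medial amygdala genes had a median of −0.13. All 12 genes found for that list, including those under the level limit, summed to 1035 scaled counts in ER, 1105 in EE and 1026 in SH.

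The 25 myelin genes had a median of −0.02, but 20 of them had a ratio below 1 and 5 an interval below it, with none above. Mbp, a main protein of compact myelin, had 55549 scaled counts in ER, against 57953 in EE and 52614 in SH, a ratio of 0.959 (0.947 to 0.970). Ermn, a cytoskeletal protein of mature oligodendrocytes, had 1256 scaled counts in ER, against 1463 in EE and 1180.1 in SH, a ratio of 0.858 (0.794 to 0.927). Gal3st1, the enzyme that makes sulphatide, had 123.1 scaled counts in ER, against 186 in EE and 140.4 in SH, a ratio of 0.661 (0.521 to 0.838). For Mbp and Ermn ER lay between EE and SH. Oligodendrocyte precursor genes had a median of −0.08 over 16 members (3 intervals above 1 and 2 below), with the receptor Pdgfra at 0.927 (0.876 to 0.981) and the transcription factor Sox8 at 1.13 (1.04 to 1.23). The 22 astrocyte genes had a median of −0.01, and 3 of them had intervals below 1, among them the gap junction protein Gja1, with 10417 scaled counts in ER, against 10855 in EE and 11025 in SH, a ratio of 0.960 (0.934 to 0.986), and Mlc1, a membrane protein of astrocyte endfeet, at 0.953 (0.922 to 0.985).

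Among vascular genes, Acta2, the smooth muscle actin, had 255 scaled counts in ER, against 356 in EE and 331 in SH, a ratio of 0.718 (0.608 to 0.848). Tagln, an actin-binding protein of smooth muscle, had a ratio of 0.777 (0.664 to 0.908). The growth factor receptor Pdgfrb of pericytes had 1329 scaled counts in ER, against 1165 in EE and 1274 in SH, a ratio of 1.14 (1.05 to 1.24). The channel Kcnj8 and Higd1b, markers of the same cells, had ratios of 1.352 (1.04 to 1.76) and 1.44 (1.05 to 1.98). The list of 18 had a median of −0.04 (3 intervals above 1 and 2 below), and the 23 endothelial genes one of −0.01, with 1 interval above 1 and 2 below. The member above was the transporter Slco1a4, at 1.1 (1.01 to 1.19), and those below were the receptors Tie1 and Kdr, at 0.827 (0.723 to 0.947) and 0.843 (0.730 to 0.973). Among 18 meningeal genes, with a median of −0.07 (1 interval above 1 and 1 below), the growth factor Igf2 had 533 scaled counts in ER, against 398 in EE and 514 in SH, a ratio of 1.34 (1.17 to 1.53). The collagen Col6a2 had 1209 scaled counts in ER, against 1457 in EE and 1393 in SH, a ratio of 0.830 (0.768 to 0.898). The 9 choroid plexus and ependymal genes had a median of 0.02. Of these, 5 had a ratio above 1 and 4 below, with 0 intervals above 1 and 1 below. The member with an interval below 1 was the ciliary dynein Dnai1. It had 40.0 scaled counts in ER, against 62.0 in EE and 94.6 in SH, a ratio of 0.645 (0.420 to 0.981). For Drc1 and Hydin, the members with most reads, the intervals included 1, at ratios of 1.012 (0.929 to 1.102) and 1.104 (0.938 to 1.301). All 3 haemoglobin genes had a ratio below 1, as for Hba-a1, with 1967 scaled counts in ER, against 2184 in EE and 1572 in SH, a ratio of 0.901 (0.847 to 0.959).

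At the synapse, scaffold genes of the excitatory side were more often lower than higher. Of 28 members, 10 had an interval below 1 and 1 above it, with a median of −0.03. All 3 Homer genes, whose proteins join metabotropic receptors to the scaffold, were lower, Homer1 with 1550.0 scaled counts in ER, against 1736 in EE and 1664 in SH, a ratio of 0.893 (0.832 to 0.958), Homer2 at a ratio of 0.786 (0.647 to 0.952) and Homer3 at 0.824 (0.703 to 0.964). Nrgn, a calmodulin-binding protein of spines, had 30894 scaled counts in ER, against 32316 in EE and 32014 in SH, a ratio of 0.956 (0.941 to 0.971), and Shank1 had a ratio of 0.949 (0.931 to 0.967). Camk2a, the kinase of spines, was the member with an interval above 1, with 28582 scaled counts in ER, against 27862 in EE and 29420.1 in SH, a ratio of 1.03 (1.01 to 1.04). Nrgn, Shank1 and Camk2a belong to the level group of 10000 and more, in which 25.2% of all members had an interval below 1 and 16.5% above it.

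Ionotropic glutamate receptor genes had a median of 0.02 over 27 members, 4 with an interval above 1 and 2 below. The core subunits Grin1 and Gria2 had ratios of 0.982 (0.960 to 1.004) and 0.992 (0.973 to 1.01). The subunit Grin3a had 1229.9 scaled counts in ER, against 1086 in EE and 1127 in SH, a ratio of 1.13 (1.04 to 1.23). Shisa6, an AMPA receptor partner, had 408 scaled counts in ER, against 337 in EE and 395 in SH, a ratio of 1.21 (1.04 to 1.41), whereas Cacng2, the partner stargazin, had 1076 scaled counts in ER, against 1179 in EE and 1095 in SH, a ratio of 0.913 (0.839 to 0.994). Of 6 metabotropic receptors, the presynaptic Grm2 had 2325 scaled counts in ER, against 2722 in EE and 2183 in SH, a ratio of 0.854 (0.807 to 0.904) and Grm8 a ratio of 0.840 (0.770 to 0.918), while the postsynaptic Grm5 had 2482 scaled counts in ER, against 2270.4 in EE and 2335 in SH, a ratio of 1.09 (1.03 to 1.16). GABA receptor and uptake genes had a median of 0.00, with 2 intervals above 1 and 4 below. Gad1, Gad2 and Slc32a1 are among those below, and Gabrd, the extrasynaptic delta subunit, had 755 scaled counts in ER, against 662 in EE and 736 in SH, a ratio of 1.14 (1.02 to 1.27).

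Of 46 vesicle release genes, 15 had an interval below 1 and 8 above it, with a median of −0.03. Rph3a, a Rab3 effector, had 9018 scaled counts in ER, against 10459.9 in EE and 8901 in SH, a ratio of 0.862 (0.838 to 0.887). Rab3c, a vesicle GTPase, had 1461 scaled counts in ER, against 1688 in EE and 1403 in SH, a ratio of 0.865 (0.805 to 0.929). The vesicle protein Sv2c, found in basal ganglia, had 269 scaled counts in ER, against 337 in EE and 238 in SH, a ratio of 0.797 (0.675 to 0.941). Snap25 and Vamp2 of the core fusion complex had ratios of 0.977 (0.966 to 0.988) and 0.966 (0.953 to 0.979). On the other side were the complexins, clamps of fusion, Cplx2 with 16155 scaled counts in ER, against 14375 in EE and 16212 in SH, a ratio of 1.12 (1.1 to 1.15) and Cplx3 at 1.16 (1.002 to 1.34), and the calcium sensors Syt1, at 1.03 (1.01 to 1.04), and Syt9, at 1.32 (1.06 to 1.66). Snap25, Cplx2 and Syt1 belong to the level group of 10000 and more. There, 25.2% of all members had an interval below 1 and 16.5% above it. Adhesion genes of the synapse had a median of −0.01 over 41 members (2 intervals above 1 and 5 below), with Nrxn3, a neurexin, at 0.911 (0.866 to 0.958) and Slitrk3 at 1.1 (1.03 to 1.19).

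Neuropeptide precursors and their processing proteins gave 9 intervals below 1 and 1 above it among 29 members, with a median of −0.02. Besides Pdyn, Tac3, Penk, Npy, Sst and Cck, these were Vgf, a granule protein induced by neurotrophins, with 5279.8 scaled counts in ER, against 6164 in EE and 5926 in SH, a ratio of 0.857 (0.825 to 0.889), the granin Scg2, with 7031 scaled counts in ER, against 7767 in EE and 6754 in SH, a ratio of 0.905 (0.876 to 0.936), and the processing enzyme Cpe, at a ratio of 0.984 (0.974 to 0.995). The granin Chgb was higher in ER, with 20189 scaled counts in ER, against 19655 in EE and 20673 in SH, a ratio of 1.03 (1.01 to 1.05). Of the members, 6 are also on the striatal or the central amygdala list. Without them, an alternative chosen after seeing the data, the median was −0.01 over 23 genes, with 6 intervals below 1. Without the shared members the median of peptide receptor genes was 0.01, and monoamine, acetylcholine and purine receptors had 4 intervals above 1 and 4 below. RGS proteins had 1 above and 1 below. With all members, peptide receptor genes had a median of −0.01 over 28 (3 intervals above 1 and 3 below), among them Tacr3, the receptor of neurokinin B, with 468 scaled counts in ER, against 566 in EE and 401 in SH, a ratio of 0.827 (0.729 to 0.938), and Galr1, a galanin receptor, with 94.4 scaled counts in ER, against 67.2 in EE and 88.6 in SH, a ratio of 1.404 (1.01 to 1.96).

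Among 42 receptors for monoamines, acetylcholine and purines, 6 had an interval below 1 and 4 above it. Adora2a and Chrm5 stood lowest, as given before, and the adenosine receptor Adora1 had 2412 scaled counts in ER, against 2745 in EE and 2284 in SH, a ratio of 0.879 (0.831 to 0.929). The muscarinic receptor Chrm4 had 1539 scaled counts in ER, against 1302 in EE and 1603 in SH, a ratio of 1.18 (1.1 to 1.28). The nicotinic subunit Chrna7 had 1310.0 scaled counts in ER, against 1186 in EE and 1144 in SH, a ratio of 1.1 (1.02 to 1.2). Chrm4 and Chrna7 were thus on the high side, opposite to Chrm5. The median of the list was 0.01.

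Channel lists had medians of 0.00 over 68 potassium channel genes (4 intervals above 1 and 7 below) and −0.03 over 46 sodium, calcium and HCN channel genes (4 intervals above 1 and 7 below). The T-type calcium channel Cacna1g had 6389.7 scaled counts in ER, against 7210.4 in EE and 6687 in SH, a ratio of 0.886 (0.856 to 0.917). Itpr1, the calcium release channel of the endoplasmic reticulum, had 5348 scaled counts in ER, against 6015 in EE and 5151 in SH, a ratio of 0.889 (0.856 to 0.923). Higher values were those of Ryr2, a release channel of the same membrane, with 8506 scaled counts in ER, against 7799 in EE and 8571 in SH, a ratio of 1.09 (1.06 to 1.13), and the cation channel Trpc4, with 705 scaled counts in ER, against 588 in EE and 703 in SH, a ratio of 1.2 (1.07 to 1.34). Among potassium channels, Kcnk2 and Kcnh1 had ratios of 0.853 (0.774 to 0.9405) and 0.856 (0.802 to 0.913), and Kcnc4 1.08 (1.02 to 1.15).

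Cyclic nucleotide genes had a median of −0.02 over 49 members (5 intervals above 1 and 7 below). The phosphodiesterases Pde4a and Pde4b, which degrade cyclic AMP, had ratios of 0.914 (0.850 to 0.983) and 0.913 (0.841 to 0.990), and the adenylyl cyclases Adcy2 and Adcy6 had 0.916 (0.874 to 0.961) and 1.11 (1.04 to 1.18). RGS proteins had a median of 0.00 over 17 (2 intervals above 1 and 2 below), with Rgs4, a brake on Gq and Gi signals, at 6420.5 scaled counts in ER, against 7585 in EE and 6023 in SH, a ratio of 0.847 (0.818 to 0.876), and Rgs6 at 1.18 (1.07 to 1.3). Growth factor genes had a median of −0.05 over 46, with 4 intervals above 1 and 8 below. Igf2, given with the meningeal genes, had the highest ratio with an interval above 1. Gfra2, the receptor for neurturin, had 419 scaled counts in ER, against 560.4 in EE and 402 in SH, a ratio of 0.747 (0.655 to 0.851), the hepatocyte growth factor gene Hgf 899 scaled counts in ER, against 1061 in EE and 989 in SH, a ratio of 0.847 (0.773 to 0.928), and Ntrk2, the receptor of BDNF, a ratio of 0.969 (0.950 to 0.989).

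BMP, TGF-beta and Wnt genes had a median of 0.00 over 49 (4 intervals above 1 and 3 below), with the ligands Tgfb2 and Tgfb3 at 1.13 (1.03 to 1.24) and 1.17 (1.04 to 1.33) and Wnt10a at 0.746 (0.565 to 0.983). For 66 axon guidance genes the median was 0.00, with 9 intervals below 1 and 3 above it, and Ephb6, an ephrin receptor without kinase activity, had 1162 scaled counts in ER, against 1487 in EE and 1115 in SH, a ratio of 0.782 (0.723 to 0.846). Cadherins and protocadherins had a median of 0.02 over 37 (6 intervals above 1 and 3 below), with Pcdh9 at 2874 scaled counts in ER, against 2480.3 in EE and 2894 in SH, a ratio of 1.16 (1.1 to 1.22), and Cdh22 at 0.883 (0.826 to 0.945).

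Immediate early genes, which neurons switch on within minutes of activity, were divided. Of 38 members, 7 had an interval above 1 and 6 below it, and the median was 0.01. Higher in ER was Sik1, a salt-inducible kinase that holds back CREB coactivators, with 242 scaled counts in ER, against 176 in EE and 227 in SH, a ratio of 1.38 (1.13 to 1.69). Klf10, a zinc finger repressor, had 1285 scaled counts in ER, against 1038 in EE and 1122 in SH, a ratio of 1.24 (1.14 to 1.347). Btg2, an antiproliferative cofactor, had 320.1 scaled counts in ER, against 264 in EE and 319 in SH, a ratio of 1.21 (1.03 to 1.44). In these 3 genes ER was the highest library. Nr4a2, an orphan nuclear receptor, had 1808 scaled counts in ER, against 1576 in EE and 1891 in SH, a ratio of 1.15 (1.07 to 1.23). Arc, which moves AMPA receptors out of the synapse, had 1225 scaled counts in ER, against 1084 in EE and 1105 in SH, a ratio of 1.13 (1.04 to 1.23). Lower in ER was Egr1, a zinc finger activator, with 2541 scaled counts in ER, against 3169 in EE and 2676 in SH, a ratio of 0.802 (0.760 to 0.846). Egr4 had 553 scaled counts in ER, against 627 in EE and 598 in SH, a ratio of 0.882 (0.784 to 0.993). Bdnf, the neurotrophin, had 1129 scaled counts in ER, against 1272 in EE and 1192 in SH, a ratio of 0.888 (0.818 to 0.964). EE was therefore the highest library for Egr1, Egr4 and Bdnf and the lowest for Sik1, Btg2, Nr4a2 and Klf10.

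The promoters of these genes were searched because members of the same list stood on opposite sides. CREB, the factor activated by cyclic AMP and calcium, binds the element named CRE, whose half-site is read as TGACG on one strand and CGTCA on the other. In the 250 bases before the start site (RefSeq, build GRCr8, with genes matched by symbol), a half-site on either strand was found in 18.2% of all 33469 promoters of the table and in 26.7% of the 11097 promoters of the member genes. Promoters were matched for 28 of the 38 genes of the list, and 16 of their 33 promoters (48.5%) held it. Of the genes higher in ER by interval, 5 of 7 had a promoter entry and 4 held a half-site: Btg2, Nr4a2, Plk3 and Sik1. Of the genes lower in ER, all 6 had an entry and 5 held it: Bdnf (1 of its 6 promoters), Egr1, Egr4, Nptx2 and Plk2. Arc and Klf10 had no entry. These counts are of genes with a half-site in any of their promoters, whereas the percentages above are of promoters. The counts of genes and the percentages are therefore not comparable. Shown here are a gene from the low side and 2 from the high side, 5′ to 3′ on the strand of the gene, with half-sites in capitals. In Btg2 the 2 half-sites overlap in the full palindrome TGACGTCA.
Egr1, chr18:26736828-26737077, plus strand: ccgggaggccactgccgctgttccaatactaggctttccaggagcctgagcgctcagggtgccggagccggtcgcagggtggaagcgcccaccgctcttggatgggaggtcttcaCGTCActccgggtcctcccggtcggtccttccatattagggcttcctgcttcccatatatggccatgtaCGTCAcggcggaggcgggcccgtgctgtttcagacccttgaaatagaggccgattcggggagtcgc
Sik1, chr20:9958647-9958896, minus strand: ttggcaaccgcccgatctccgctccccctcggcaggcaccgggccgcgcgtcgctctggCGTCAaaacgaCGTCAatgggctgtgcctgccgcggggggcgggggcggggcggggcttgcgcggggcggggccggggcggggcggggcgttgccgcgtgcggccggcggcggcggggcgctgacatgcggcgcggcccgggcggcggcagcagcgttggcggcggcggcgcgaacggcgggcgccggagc
Btg2, chr13:48087691-48087940, minus strand: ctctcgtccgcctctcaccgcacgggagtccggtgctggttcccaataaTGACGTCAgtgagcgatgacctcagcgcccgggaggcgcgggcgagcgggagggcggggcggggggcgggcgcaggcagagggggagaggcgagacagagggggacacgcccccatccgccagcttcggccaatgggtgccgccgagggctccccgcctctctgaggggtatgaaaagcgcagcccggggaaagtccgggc

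Of 26 glucocorticoid-responsive genes 17 had a ratio above 1, with 4 intervals above it, 0 below and a median of 0.03. Ddit4, an inhibitor of mTOR signalling that glucocorticoids induce, had 1212 scaled counts in ER, against 1063 in EE and 1199 in SH, a ratio of 1.14 (1.05 to 1.24). Nr3c2, the mineralocorticoid receptor, had 602 scaled counts in ER, against 531 in EE and 616 in SH, a ratio of 1.13 (1.005 to 1.28), and Errfi1 and Nedd9 had ratios of 1.12 (1.01 to 1.245) and 1.13 (1.01 to 1.26). For Klf9, a target of the glucocorticoid receptor, the interval included 1, at 0.947 (0.890 to 1.01). Of 23 clock genes 16 had a ratio above 1 at a median of 0.03, and Tef, an output factor of the clock, was the member with an interval above 1, at 9614 scaled counts in ER, against 9220.3 in EE and 9323 in SH, a ratio of 1.04 (1.01 to 1.07).

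Of 36 laminin, nidogen and other basement membrane and matricellular genes, 19 had a ratio above 1 and 17 below it, at a median of 0.00. The interval lay above 1 for 7 of them and below it for 0. Sparcl1, the astrocyte protein hevin, had 65751 scaled counts in ER, against 58199 in EE and 67381 in SH, a ratio of 1.13 (1.12 to 1.14). Sparc, its relative, had 16712 scaled counts in ER, against 16064 in EE and 18352 in SH, a ratio of 1.04 (1.02 to 1.06). Matn2, a matrilin, had 1759 scaled counts in ER, against 1524 in EE and 1925 in SH, a ratio of 1.15 (1.08 to 1.24). Thbs3, a thrombospondin, had 672 scaled counts in ER, against 557 in EE and 733 in SH, a ratio of 1.21 (1.07 to 1.354). For each of these 4 genes ER and SH both lay above EE. The 4 are all from the higher side of the list, and none is a laminin or nidogen. Sparcl1 and Sparc belong to the level group of 10000 and more, in which 25.2% of all members had an interval below 1 and 16.5% above it. Collagens had 7 intervals below 1 and 2 above among 31 members and a median of −0.05. Besides Col8a1 and Col14a1, Col11a1, a fibril collagen, had 582 scaled counts in ER, against 735 in EE and 536 in SH, a ratio of 0.791 (0.707 to 0.885). Col4a2, of the vascular basement membrane, had 3295 scaled counts in ER, against 3510.1 in EE and 3569 in SH, a ratio of 0.939 (0.894 to 0.985). Col23a1, a membrane collagen, had 782 scaled counts in ER, against 667 in EE and 897 in SH, a ratio of 1.17 (1.05 to 1.3).

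The perineuronal net, a lattice of lecticans, hyaluronan and link proteins around neurons, gave a median of −0.02 over 17 genes (2 intervals above 1 and 3 below). The link protein Hapln4, found at perisomatic inhibitory synapses, had 7165 scaled counts in ER, against 5950.1 in EE and 7836 in SH, a ratio of 1.2 (1.16 to 1.247), whereas Hapln1 had 1189 scaled counts in ER, against 1313 in EE and 1200.0 in SH, a ratio of 0.905 (0.835 to 0.981) and the lectican Bcan a ratio of 0.959 (0.930 to 0.988). Of 47 enzymes that build or trim chondroitin and heparan sulphate, 8 had an interval above 1 and 3 below it, at a median of 0.00. Hs6st2, a heparan 6-O-sulphotransferase, had 332 scaled counts in ER, against 243 in EE and 256 in SH, a ratio of 1.37 (1.15 to 1.62). Chsy1, a chondroitin synthase, had 563 scaled counts in ER, against 495 in EE and 573 in SH, a ratio of 1.14 (1.004 to 1.29). Hs3st1, a heparan 3-O-sulphotransferase, had 385 scaled counts in ER, against 519 in EE and 373 in SH, a ratio of 0.741 (0.647 to 0.849). Proteases and inhibitors had a median of 0.00 (5 intervals above 1 and 2 below), with the membrane protease Mmp17 at 5823 scaled counts in ER, against 4839.7 in EE and 5209 in SH, a ratio of 1.2 (1.16 to 1.251) and Timp4 at 0.865 (0.756 to 0.989), and 13 integrins one of 0.03.

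Microglia genes had a median of −0.03 over 28 members, with 2 intervals above 1 and 3 below. Irf8, a transcription factor of microglia, had 266 scaled counts in ER, against 331 in EE and 265 in SH, a ratio of 0.803 (0.679 to 0.949). The integrin chain Itgam had 437 scaled counts in ER, against 509 in EE and 499.9 in SH, a ratio of 0.859 (0.753 to 0.980). Ctss, a lysosomal protease, had 5237 scaled counts in ER, against 4938 in EE and 5325 in SH, a ratio of 1.06 (1.02 to 1.1), and the adhesion ligand Selplg a ratio of 1.09 (1.01 to 1.18). Antigen presentation genes had a median of −0.01 over 22 (1 interval above 1 and 2 below), and Cd74, the invariant chain of class II molecules, had 170.3 scaled counts in ER, against 252 in EE and 162 in SH, a ratio of 0.675 (0.551 to 0.826).

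Complement genes had a median of −0.01 over 24 (1 interval above 1 and 1 below), with the decay factor Cd55 at 238 scaled counts in ER, against 174 in EE and 178 in SH, a ratio of 1.37 (1.12 to 1.68). Among 35 interferon-response genes the median was −0.02 (3 intervals above 1 and 4 below), and single members stood apart in both directions, Mx2 with 148 scaled counts in ER, against 212 in EE and 224 in SH, a ratio of 0.697 (0.559 to 0.867), and Xaf1 with 177 scaled counts in ER, against 125 in EE and 150.4 in SH, a ratio of 1.42 (1.12 to 1.8). Of 36 cytokine and chemokine genes, 24 had a ratio above 1, at a median of 0.05 (5 intervals above 1 and 2 below). Besides Tnfrsf25, the growth factor Csf1 had 1179 scaled counts in ER, against 1018 in EE and 1343 in SH, a ratio of 1.16 (1.06 to 1.26). Il34, which shares its receptor with Csf1, was on the other side, with 1819.8 scaled counts in ER, against 1985 in EE and 1916 in SH, a ratio of 0.917 (0.859 to 0.978).

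The 13 mitochondrially encoded chains, which took 8.32% of the scaled counts in ER, 8.185% in EE and 7.97% in SH, had a median of 0.02, with 7 intervals above 1 and 2 below. Mt-nd4 had 221607 scaled counts in ER, against 204704 in EE and 194955 in SH, a ratio of 1.08 (1.08 to 1.09). Mt-nd4l, whose coding sequence overlaps its start, had 16444 scaled counts in ER, against 17852 in EE and 17137 in SH, a ratio of 0.921 (0.901 to 0.941). Reads in the overlap are uncertain. The chains with most reads, Mt-co1 and Mt-co3, had ratios of 1.0001 (0.9967 to 1.0036) and 1.0161 (1.0108 to 1.0214). These named chains belong to the level group of 10000 and more, in which 25.2% of all members had an interval below 1 and 16.5% above it. At this depth a ratio near 1 can have an interval that excludes it, as in Mt-co3. Nuclear oxidative phosphorylation genes had a median of 0.01 over 78 (5 intervals above 1 and 3 below), with Cox5b of complex IV at 4822 scaled counts in ER, against 4201 in EE and 4503 in SH, a ratio of 1.15 (1.1 to 1.2). Medians were 0.00 for 22 glycolysis genes, −0.01 for 26 citrate cycle genes and −0.02 for 36 cholesterol genes.

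Of the 73 ribosomal protein rows 47 had a ratio above 1 at a median of 0.01, and of 56 translation factors 36 did at 0.02. Many ribosomal protein genes have processed copies, so their reads are uncertain. Medians were 0.02 for 59 chaperones, 0.01 for 36 proteasome genes and 0.01 for 90 splicing factors.

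Of 77 histone and DNA methylation modifiers, 10 had an interval above 1 and 2 below it, at a median of 0.01. Crebbp, a histone acetyltransferase recruited by CREB, had 1857 scaled counts in ER, against 1638 in EE and 1724 in SH, a ratio of 1.13 (1.06 to 1.21). Kdm7a, a histone demethylase, had 285 scaled counts in ER, against 221 in EE and 279.8 in SH, a ratio of 1.29 (1.07 to 1.55). Tet1, which oxidises methylated cytosine, had 96.4 scaled counts in ER, against 65.1 in EE and 55.8 in SH, a ratio of 1.48 (1.06 to 2.07). Dot1l, a histone H3 methyltransferase, had 1458 scaled counts in ER, against 1643 in EE and 1755 in SH, a ratio of 0.887 (0.825 to 0.954). For Tet1 the EE and SH values were close to each other, and for Crebbp and Kdm7a ER and SH were both above EE.

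The neuronal cytoskeleton list had 11 intervals below 1 and 3 above it among 41 members, at a median of −0.02. Ina, an intermediate filament protein, had 7883 scaled counts in ER, against 8515 in EE and 8071 in SH, a ratio of 0.926 (0.897 to 0.955), Stmn1, a microtubule destabiliser, 12177 scaled counts in ER, against 13010.5 in EE and 11624 in SH, a ratio of 0.936 (0.913 to 0.960) and Map1b a ratio of 0.975 (0.964 to 0.987). Stmn1 and Map1b belong to the level group of 10000 and more. In that group 25.2% of all members had an interval below 1 and 16.5% above it. Mitotic genes had a median of −0.03 over 21 (2 intervals above 1 and 3 below), with the proliferation marker Mki67 at 189.8 scaled counts in ER, against 244 in EE and 161 in SH, a ratio of 0.778 (0.638 to 0.947), and the mitotic kinesin Kif23 at 92.3 scaled counts in ER, against 62.0 in EE and 83.7 in SH, a ratio of 1.49 (1.06 to 2.1). Metallothionein and oxidative stress genes had a median of 0.00 over 35, and transporters of transmitters and amino acids one of −0.02 over 37.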

How the data were processed

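Per the labels, RNA pooled from 10 rats per condition went through poly(A) selection and a strand-keeping library kit. The authors aligned reads with HISAT2 and normalised them with DESeq2. For the tool versions, the build and the counting settings the sources used here say nothing. The deposited values are a signal, namely the count of each gene over the size factor of its library. A read is worth 1.0258 in ER and 1.0339 in EE. Dividing by these gave whole reads, to a tolerance of 0.001, for 100% of the values. With 1 library per condition no count test could be run and no p-value is given.

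Ratios carry no pseudocount, whereas log2 ratios and list medians carry 1. Exact 95% binomial intervals came from the recovered reads. The labels name no molecular identifiers, so reads are not taken as independent molecules. Members and lists were chosen with earlier results of these data known. Named genes were those with the 15 largest ratios in each direction past the size rule, the 15 in each direction whose interval bound lay farthest from 1 and, per list, members past the rule, the extremes with an interval that excluded 1 and the 2 with most reads. The text gives examples of these, and others chosen after seeing their values. There were 46 symbols on more than 1 row. Alternatives were other scalings, level limits, folds and pseudocounts. The scripts were tested on simulated data. Python 3.11.15, scipy 1.17.1 and edgeR 4.0.16 (scaling factors) were used. A few genes are not reported here.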

Additional observations from a re-analysis of the deposited data

Results flagged for a closer look

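Genes of types other than protein-coding lay outside the comparison and still held reads, 2.21% of the ER library and 2.199% of the EE library. Where their mean over the 3 libraries reached 50 scaled counts, as for 598 of the 2316, 15 passed the size rule as higher in ER and 13 as lower. Processed pseudogenes gave 7 of the higher and 2 of the lower genes, other pseudogenes without a subtype 2 and 5, lincRNAs 2 and 3, and miRNA genes 3 and 1. The pseudogene LOC688932 had 88.2 scaled counts in ER, against 4939 in EE and 107 in SH.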

How the results depend on the processing

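The number of genes past the size rule depended on where the limits were set. At a mean of at least 20 it was 84 higher and 94 lower in ER, at 100 it was 13 and 16, and at 200 it was 8 and 8. A 2-fold limit gave 9 and 11 and a lower fold limit 174 and 182. With ordinary symbols alone 20 were higher. Fewer or more genes enter by construction in each of these cases. Scaling by library totals, edgeR TMM or upper quartile moved all log2 ratios by at most 0.0032 and left 38 and 54 genes past the rule. No ratio of the 244 genes chosen for naming moved outside its counting interval. Each scaling moved all ratios alike and by little, so this was nearly fixed in advance, as it was for list medians under these scalings. The medians of the 60 lists stayed between the medians of the lower and upper interval bounds of their members under other scalings, pseudocounts and level limits, but 6 lists with a median near 0 changed sign in at least 1 of these. These were the lists of choroid plexus, GABA receptors, monoamine receptors, axon guidance, sulphate enzymes and matrix proteases. No paired analysis was possible because each condition has 1 library. Depth limits the rarest genes: at 50.3 scaled counts in ER and 47.6 in EE, the interval of Ifi47 ran from 0.692 to 1.62.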

Other observations

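Genes known only by clone or placeholder names made up 8.66% of the members and 37% of the genes past the size rule, 18 higher and 16 lower in ER. Of the genes with a ratio of 2-fold or more either way, 8 of 9 higher and 11 of 11 lower had such a name, and Tipinl1 was the remaining one. In AABR07046778.1 the values were 16871 scaled counts in ER, 92.0 in EE and 16598 in SH, and in LOC680121 they were 2369 in ER, 6709 in EE and 9556 in SH. AABR07036746.1 had no read in ER, against 241 scaled counts in EE and 1.99 in SH.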
